A study of Mus musculus with 3 samples.

Results

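Syndecans and glypicans are the 2 families of proteoglycans that hold heparan sulfate at the cell surface, and their RNA was examined in sorted embryonic mammary cells of the mouse. The 10 genes of these families (Sdc1 to Sdc4 and Gpc1 to Gpc6) were chosen by name, and a probe set counted as a member when the platform annotation gave it exactly 1 of these symbols. This found 16 of the 28898 probe sets with a single symbol. They covered 8 of the 10 genes, 3 syndecans (Sdc2, Sdc3, Sdc4) and 5 glypicans (Gpc1, Gpc2, Gpc4, Gpc5, Gpc6), out of 17097 genes in all. Sdc1 and Gpc3 were not analysed here.

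Expression was measured on 3 Affymetrix arrays of 1 group. The cells had high CD49f (integrin alpha 6) on their surface and high green fluorescence, and came from female Lgr5-IRES-GFP embryos at embryonic day 14. Lgr5 is an R-spondin receptor gene, and the reporter puts the fluorescent protein under its control. Each array carried the pooled female embryos of 1 litter, epidermis and mammary gland having been digested together, and no second genotype, stage or cell type was compared. Sorts gave 813 or 2000 cells, without a record here of which array had which number, and their cDNA was amplified over 25 cycles.

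Syndecans span the membrane and end in a short cytoplasmic tail that binds adaptor and cytoskeletal proteins, whereas glypicans are held on the outer leaflet by a glycolipid anchor. Both carry sulfated sugar chains that bind fibroblast growth factors, Wnt proteins, bone morphogenetic proteins and Hedgehog proteins, and can act as co-receptors or limit their spread. In the mouse mammary gland, syndecan-1 is known for its part in tumour formation driven by Wnt1.

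The promoters of members on either side of the detection threshold are shown because the genes below it, Gpc2 and Gpc5, could be set beside genes well above it, Sdc4 and Gpc4. RefSeq windows (build GRCm38.p6) matched 5 of the 8 measured genes, and the 250 bases before the annotated start are used. Capitals mark GGGCGG on either strand, the GC box, and each sequence runs 5′ to 3′ on the strand of its gene. The windows are chr2:164443189-164443438 on the minus strand for Sdc4, chrX:52164924-52165173 on the minus strand for Gpc4, chr5:138279938-138280187 on the minus strand for Gpc2 and chr14:115091965-115092214 on the plus strand for Gpc5.
Sdc4: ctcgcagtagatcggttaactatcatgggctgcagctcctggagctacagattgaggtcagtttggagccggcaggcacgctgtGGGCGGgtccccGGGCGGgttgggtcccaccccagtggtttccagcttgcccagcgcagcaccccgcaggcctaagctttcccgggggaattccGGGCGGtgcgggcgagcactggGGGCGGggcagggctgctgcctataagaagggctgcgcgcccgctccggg
Gpc4: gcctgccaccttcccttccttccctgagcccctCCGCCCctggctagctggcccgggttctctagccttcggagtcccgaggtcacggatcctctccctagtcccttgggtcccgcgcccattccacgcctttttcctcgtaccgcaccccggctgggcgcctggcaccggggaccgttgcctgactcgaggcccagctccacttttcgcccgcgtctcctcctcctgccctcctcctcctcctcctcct
Gpc2: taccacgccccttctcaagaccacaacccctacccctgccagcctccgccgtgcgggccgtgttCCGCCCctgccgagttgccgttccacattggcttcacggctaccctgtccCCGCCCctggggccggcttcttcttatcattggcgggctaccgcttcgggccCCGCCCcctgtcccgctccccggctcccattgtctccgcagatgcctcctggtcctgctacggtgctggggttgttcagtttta
Gpc5: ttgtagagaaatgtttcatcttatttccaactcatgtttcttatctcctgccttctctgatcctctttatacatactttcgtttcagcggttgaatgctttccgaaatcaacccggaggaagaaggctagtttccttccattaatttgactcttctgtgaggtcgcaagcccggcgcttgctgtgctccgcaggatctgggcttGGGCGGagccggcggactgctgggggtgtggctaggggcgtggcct

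The GC box occurred 4 times in the window of Sdc4, 1 time in that of Gpc4, 3 times in that of Gpc2 and 1 time in that of Gpc5, and 32.7% of all 32851 windows of this length held it. CpG dinucleotides numbered 19 for Sdc4, 18 for Gpc4, 19 for Gpc2 and 12 for Gpc5, against a median of 6 over all windows. The counts of genes above and below the threshold overlapped, and of these 4 windows that of Gpc5 had a TATAAA match on either strand (12.4% of windows). CCAAT, searched on both strands, matched 2 times in Gpc2 and not in the other 3 windows (33.8% of windows). Sdc3, the other measured gene with a window, had 32 CpG dinucleotides and 3 GC boxes.

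With no control samples, each gene was set against background on its own arrays. Background was the 95th percentile of 74 olfactory and vomeronasal receptor genes, a log2 threshold of 6.14 on replicate 1, 6.17 on replicate 2 and 5.99 on replicate 3. A gene whose mean over the arrays lay above this threshold with an adjusted p under 0.05 (limma, one-sided, over all genes) was called above background, using the probe set with the highest mean. By this rule 55.1% of all genes were above background. Each SE given beside a mean above or below the threshold is the moderated SE of the limma fit. It draws on the variance of all genes and is not the spread of that gene over its own 3 arrays. Replicates 1 and 2 resembled each other more (Pearson r = 0.994 across probe sets) than either resembled replicate 3 (0.942 and 0.944). Replicate 3 also had a higher median over all probe sets, 6.52 against 6.25 on each of the others. Nothing in the labels names a batch, and each litter was on 1 array.

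Of the 8 measured members, 6 were above background, against 55.1% of all genes. These were all 3 measured syndecans and the glypicans Gpc1, Gpc4 and Gpc6. Gpc2 and Gpc5 lay below the threshold on every array. The median member stood 2.98 above the threshold on the log2 scale, and the median of all genes 0.78 above it. The same 6 genes were called under each of the 12 other settings tried (in 1 of them, a filter on dim probe sets removed Gpc2 and Gpc5 before the test and 94.8% of the remaining genes were called), including thresholds from genes restricted to unrelated tissues (33.6% of all genes called) and from the brightest antigenomic control (31.6%). Levels of different probe sets depend on their probes, so genes are not ranked by level here.

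**Figure D1:**
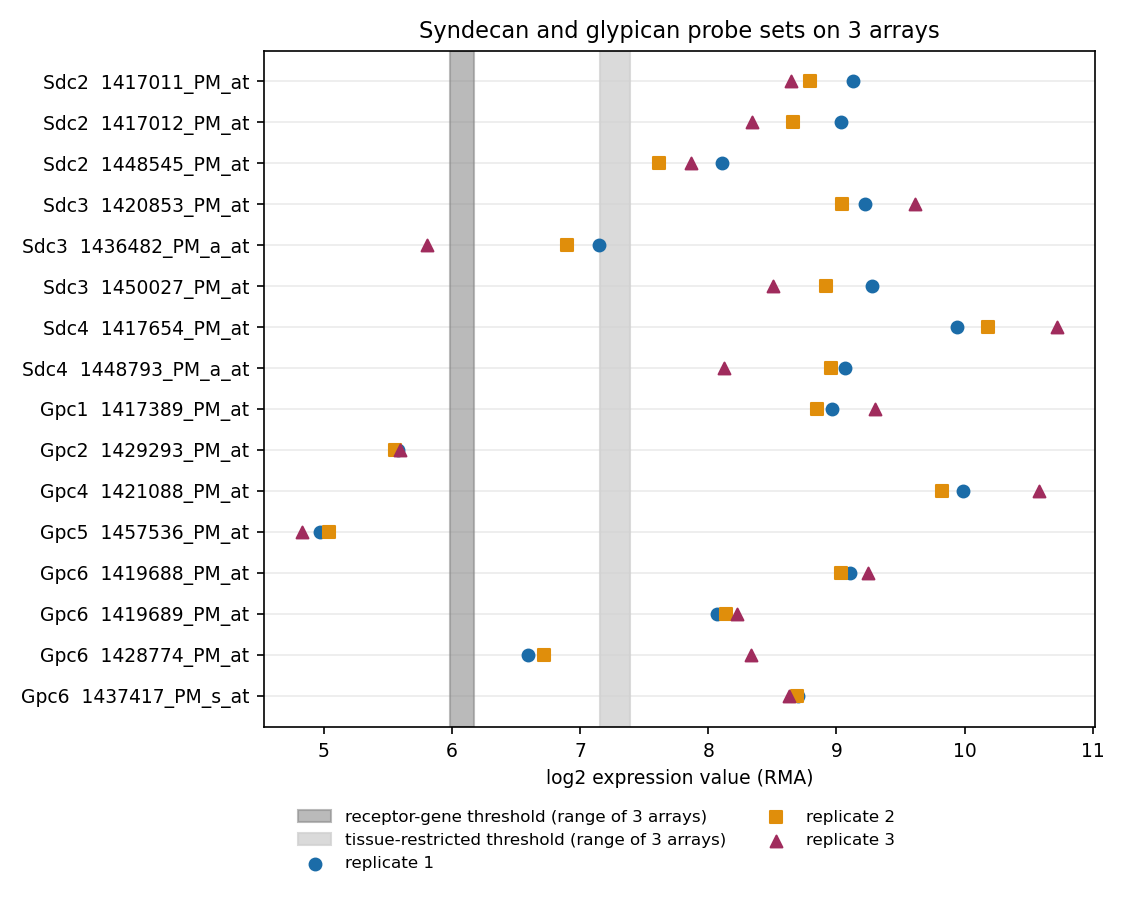
Log2 expression of each of the 16 syndecan and glypican probe sets on each of the 3 arrays, one row per probe set and one marker per array. Grey bands are the range over the arrays of the receptor-gene threshold (5.99 to 6.17) and of the threshold from tissue-restricted genes (7.15 to 7.39). Gpc2 and Gpc5 lie left of both bands on every array, and the probe sets of Sdc3 (1436482_PM_a_at) and Gpc6 (1428774_PM_at) spread across the bands.

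Sdc2 encodes a syndecan studied mostly in mesenchymal and endothelial cells. Its probe set of highest mean (1417011_PM_at) read 9.13, 8.80 and 8.65 on replicates 1, 2 and 3. Replicate 1 was the highest array, and all 3 were well above the threshold, by a mean of 2.76 ± 0.17 (SE, n = 3; adjusted p = 7.48e-05). The other probe sets gave 9.03, 8.66 and 8.34 (1417012_PM_at) and 8.11, 7.61 and 7.86 (1448545_PM_at), and both were above background (adjusted p = 0.000191 and 0.000606 over all probe sets). All 3 probe sets of Sdc2 were highest on replicate 1. The third, 1448545_PM_at, lost its call against the brightest antigenomic control (adjusted p = 0.0537).

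Sdc3 encodes a syndecan best known from the nervous system and from muscle. Probe set 1420853_PM_at read 9.22, 9.04 and 9.61 on replicates 1, 2 and 3, a mean of 3.19 ± 0.21 above the threshold (SE, n = 3; adjusted p = 8.80e-05). A second probe set annotated to the same source sequence, 1450027_PM_at, read 9.27, 8.92 and 8.50 and was above background as well (adjusted p = 0.000167 over all probe sets). These 2 probe sets ordered the arrays differently, the first being highest and the second lowest on replicate 3. The remaining one, 1436482_PM_a_at, read 7.15, 6.90 and 5.81, fell under the threshold on replicate 3 and was not above background (adjusted p = 0.111). Without replicate 3 it was above background (adjusted p = 4.45e-05), with the spread of 2 arrays only.

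Sdc4 encodes the syndecan of focal adhesions, which binds and activates protein kinase C alpha. Its probe set 1417654_PM_at read 9.94, 10.18 and 10.72 on replicates 1, 2 and 3, which was 4.18 ± 0.22 above the threshold (SE, n = 3; adjusted p = 5.38e-05). Its other probe set, 1448793_PM_a_at, read 9.07, 8.96 and 8.13 (adjusted p = 0.000298 over all probe sets). Both detected the gene on every array, and they moved in opposite directions on replicate 3, the first upwards and the second downwards.

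Gpc1 encodes a glypican that binds fibroblast growth factors. Its single probe set read 8.97, 8.85 and 9.30 on replicates 1, 2 and 3, which was 2.94 ± 0.19 above the threshold (SE, n = 3; adjusted p = 9.32e-05). The arrays differed by at most 0.45, less than the median range of 0.49 among genes above background.

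Gpc4 encodes a glypican that modulates Wnt and bone morphogenetic protein signals. Its single probe set read 9.98, 9.82 and 10.58 on replicates 1, 2 and 3 and was 4.03 ± 0.23 above the threshold (SE, n = 3; adjusted p = 6.16e-05). Replicate 3 was the highest array, as for the first probe set of Sdc4.

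Gpc6, a glypican gene mutated in human omodysplasia, was measured by 4 probe sets. Probe set 1419688_PM_at read 9.10, 9.04 and 9.25 on replicates 1, 2 and 3, a mean of 3.03 ± 0.17 above the threshold (SE, n = 3; adjusted p = 5.76e-05). Probe sets 1419689_PM_at (8.07, 8.14 and 8.22) and 1437417_PM_s_at (8.70, 8.69 and 8.63) were above background too (adjusted p = 0.000266 and 0.000120 over all probe sets). These 3 probe sets varied little, with SDs of 0.11, 0.07 and 0.04, against a median SD of 0.26 among all genes above background. The remaining one, 1428774_PM_at, stood out with 6.59, 6.72 and 8.33, a step of over 1 on replicate 3, and narrowly missed the call (adjusted p = 0.0506). It passed without replicate 1, 2 or 3 (adjusted p = 0.00129, 0.00127 and 0.000519), where 2 arrays set the spread.

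Gpc2 and Gpc5 were the members without a signal above background. Gpc2, known as cerebroglycan from developing neurons, read 5.58, 5.55 and 5.60 on replicates 1, 2 and 3, with a mean difference from the threshold of -0.53 ± 0.12 (SE, n = 3; adjusted p = 1.00). Gpc5, which is expressed in brain and kidney, read 4.97, 5.04 and 4.83, with a mean difference of -1.16 ± 0.11 (SE, n = 3; adjusted p = 1.00). Each was measured by 1 probe set, so a transcript form that this probe set does not cover was not tested. Gpc5 and Gpc6 are neighbours on chromosome 14 with no protein-coding gene between them in RefSeq, and they lay on opposite sides of the threshold. Gpc4 has Gpc3 as such a neighbour on the X chromosome.

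Counted by probe set, 12 of the 16 member probe sets were above background, against 49.2% of all probe sets with a single symbol. The 4 others were those of Gpc2 and Gpc5, 1436482_PM_a_at of Sdc3 and 1428774_PM_at of Gpc6. The same number of member probe sets, 12, was called with the threshold of tissue-restricted genes, where the share over all probe sets was 27.8%.

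Differences between the arrays are described without a test, since each litter was measured once. On replicate 3 the median of all genes was 0.22 higher than the mean of the other 2 arrays, and differences of members are given relative to this shift. Gpc4 was 0.46 and Sdc4 0.44 above it, Sdc3 0.26 and Gpc1 0.17, with Gpc1 turning to -0.04 after quantile normalization and Sdc3 and Sdc4 to the other side when all their probe sets were averaged. Gpc6 was close to it (-0.04), although its difference before the shift was taken off was 0.47 with its 4 probe sets averaged, against 0.18 with the brightest. The values of Gpc2 (-0.18), Gpc5 (-0.39) and Sdc2 (-0.53) were below the shift. Among the 6 members above background, 4 thus exceeded the shift of all genes, against 51.7% of genes above background. None of the 6 had a range over the arrays above 1, a range that 14.0% of genes above background exceeded.

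**Figure D2:**
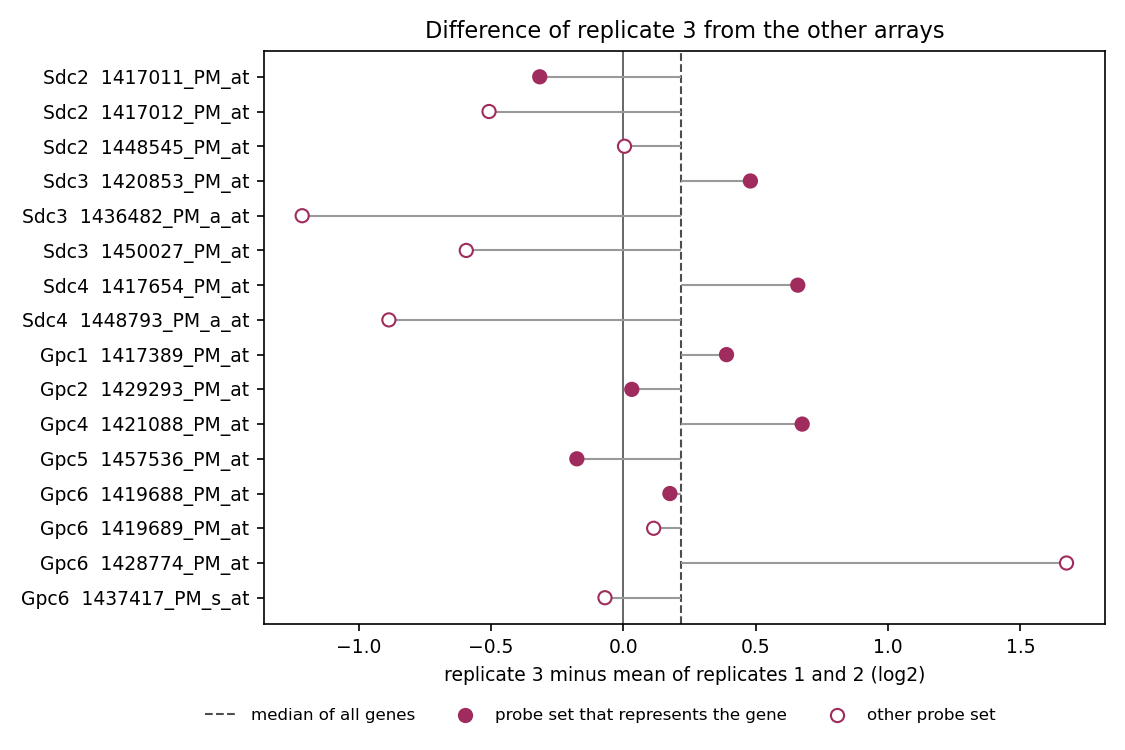
Log2 value on replicate 3 minus the mean of replicates 1 and 2 for each member probe set. Filled points are the probe sets that represent their gene, open points the others, and lines join each point to the dashed line at 0.22, the median over all genes. Probe sets of Sdc3 and of Sdc4 lie on both sides of the dashed line, those of Sdc2 all lie to its left, and 1428774_PM_at of Gpc6 lies furthest to the right.

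The sign of these differences depended on the probe set for Sdc3, Sdc4 and Gpc6. For Sdc4, 1417654_PM_at was 0.44 above the shift and 1448793_PM_a_at was below it (-1.10). For Sdc3, the values were 0.26 for 1420853_PM_at, -0.81 for 1450027_PM_at and -1.43 for 1436482_PM_a_at. In Gpc6, 1428774_PM_at was 1.46 above the shift while the other probe sets were slightly below it (-0.04 to -0.29). Among the 4 members with at least 2 probe sets, all of which had 2 or more above background, Sdc3 and Sdc4 had such probe sets on both sides of the shift. This was so for 47.1% of all 3300 genes of that kind, close to the share among the members. The 3′ minus 5′ difference of the Gapdh control probe sets was -0.06, -0.08 and 0.03 on replicates 1, 2 and 3, and that of the beta-actin controls was -0.56, -0.56 and -0.40. For the transferrin receptor controls the same difference was -0.61, -0.54 and -0.32 on replicates 1, 2 and 3. The part of RNA quality in the discordance was not tested.

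Markers of other cells were read on the same arrays. All 9 basal and mammary epithelial markers were above background, including the sort genes Itga6 (10.37 ± 0.40, SD, n = 3) and Lgr5 (10.27 ± 0.44) and the basal factor gene Trp63 (10.53 ± 0.39). So were 12 of 13 markers of mesenchyme, such as Col1a1 (12.99 ± 0.15), Col1a2 (7.99 ± 0.09) and Col3a1 (12.76 ± 0.13), but not Pdgfra (4.89 ± 0.55). The median marker of epithelium was 0.57 higher on replicate 3 than on the others, and the median marker of mesenchyme was lower (-0.20). These 2 values still include the 0.22 shift of all genes, unlike the differences given for the members. The log2 values of the epithelial list summed to 89.3, 91.9 and 94.7 on replicates 1, 2 and 3. Those of the mesenchymal list summed to 134, 133 and 132. Both sums also include the shift of all genes, once for each gene, and are not amounts of RNA. Relative to the shift of all genes, 6 of 9 epithelial and 2 of 13 mesenchymal markers were higher on replicate 3, against 51.7% of genes above background. Gpc4, Gpc1 and, by their brightest probe sets, Sdc4 and Sdc3 differed on replicate 3 in the direction of the median epithelial marker. Sdc2 differed in that of the median mesenchymal marker. These directions were not particular to the 2 lists. Before the shift was taken off, the median was 0.40 for melanocyte markers and -0.52 for erythroid markers. It was -0.24 for leukocyte markers, -0.22 for suprabasal and periderm markers, and between -0.19 and 0.10 for the remaining lists. The part of the cell mixture in the differences of the members was not tested. In pooled cells, fewer cells of a type and less RNA per cell cannot be told apart. Of the other lists, endothelium had 1 of 8 markers above background, leukocytes 3 of 7, erythroid cells 2 of 5, skeletal muscle 2 of 7, Schwann or neural cells 2 of 5, melanocytes 1 of 6, and suprabasal epidermis and periderm 5 of 8, where 55.1% of all genes were above background. With the threshold of tissue-restricted genes (33.6% of all genes), 8 of 9 epithelial and 12 of 13 mesenchymal markers passed, and 1 each of the leukocyte, erythroid and Schwann or neural lists. No marker of endothelium, muscle, melanocytes or periderm passed it, which did not mean a low value on every array. On replicates 1, 2 and 3, Krt4 read 8.96, 8.26 and 5.50, and Krt10 6.94, 7.70 and 9.18. Pecam1 read 8.12, 8.30 and 6.47, where that threshold was 7.39, 7.15 and 7.16. RNA of these cell types was therefore not shown to be absent.

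The enzymes that build the sugar chains were then counted by role. Over 9 lists of genes for chains, other heparan sulfate proteins, partners and processing, 44 of 60 measured genes (73.3%) were above background, against 55.1% of all genes. The chain enzyme lists alone reached 23 of 37 (62.2%), close to the share of all genes. With the threshold of tissue-restricted genes the counts were 34 of 60 and 17 of 37, against 33.6% of all genes.

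**Figure D3:**
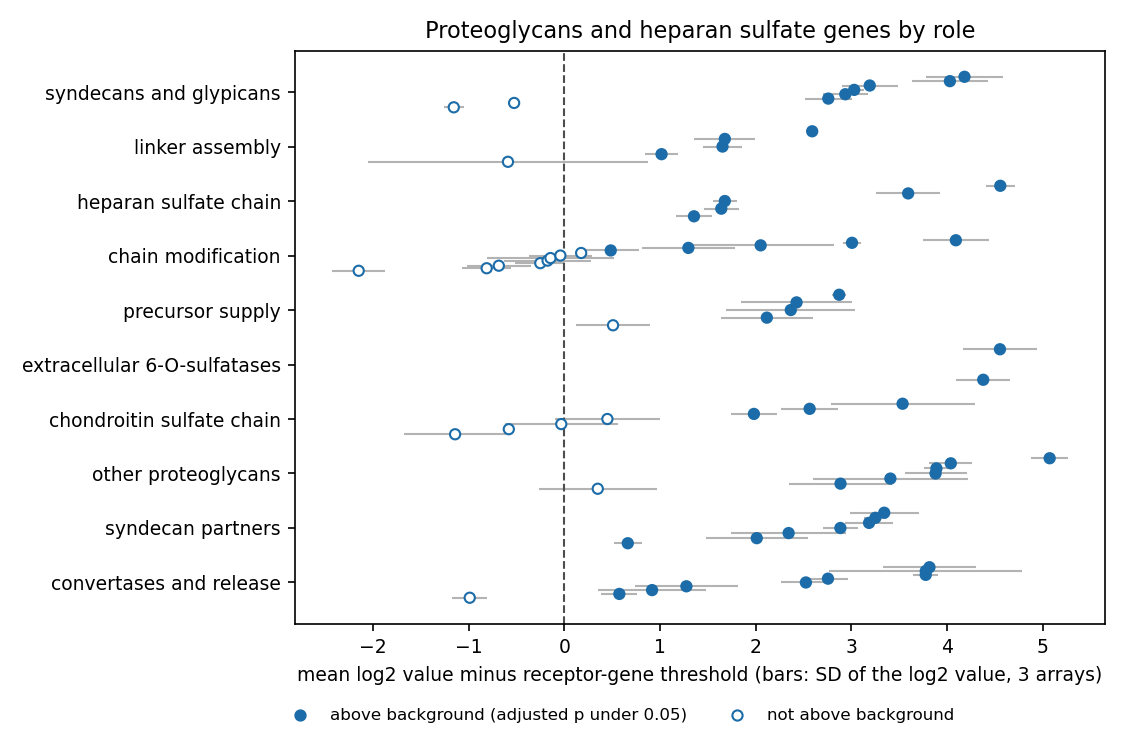
Mean log2 value minus the receptor-gene threshold for the measured members and for genes of each role, with the SD of the log2 value over 3 arrays as bars. Filled points are above background (adjusted p under 0.05). All 5 genes of the heparan sulfate chain list, both sulfatases and all 7 syndecan partners are filled, and most open points are in the chain modification and chondroitin sulfate lists.

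Heparan sulfate begins with a linker of 4 sugars on the core protein. Of 5 measured linker genes, 4 were above background, against 55.1% of all genes. These were the xylosyltransferase gene Xylt2 (7.75 ± 0.20, SD, n = 3), the galactosyltransferase genes B4galt7 (7.78 ± 0.32) and B3galt6 (7.12 ± 0.17), and the glucuronyltransferase gene B3gat3 (8.69 ± 0.06). B4galt7 and B3galt6 did not pass the threshold of tissue-restricted genes (adjusted p = 0.0559 and 1.00). The probe set of B4galt7 has the suffix x_at, given to probes that may also bind other sequences. B4galt7 also lost its call without probe sets of suffix s_at or x_at (adjusted p = 0.0589), and B3galt6 with its probe sets averaged (adjusted p = 0.0616). Xylt2 lost its call against the brightest antigenomic control (adjusted p = 0.0870), where B3gat3 was the 1 linker gene that passed. Pxylp1, which encodes a phosphatase of the linker xylose, was not above background and had its high value on replicate 3 (7.19, with a mean of 5.51 ± 1.46).

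All 5 genes on the list for start and extension of the heparan sulfate chain were above background, against 55.1% of all genes. Ext1 and Ext2, which encode the 2 subunits of the chain polymerase, stood at 9.69 ± 0.33 and 7.78 ± 0.13 (SD, n = 3), and Extl3, which adds the sugar that commits the linker to heparan sulfate, at 10.66 ± 0.15. Extl2 (7.74 ± 0.18) and Extl1 (7.46 ± 0.19) lost their call with the threshold of tissue-restricted genes (adjusted p = 0.0544 and 0.395). Ext2 lost its call against the brightest antigenomic control (adjusted p = 0.0659), where 2 of the 5 genes passed, against 31.6% of all genes. The chondroitin sulfate enzymes, which compete for the same linker, had 3 of 7 genes above background, against the same 55.1%. These were the synthase gene Chsy1 (9.64 ± 0.75), the polymerizing factor gene Chpf (8.08 ± 0.24) and the 4-O-sulfotransferase gene Chst11 (8.66 ± 0.30). The genes for the enzymes that begin chondroitin sulfate, Csgalnact1 (5.52 ± 0.02) and Csgalnact2 (4.96 ± 0.53), were not above background, nor was Chpf2 (6.07 ± 0.59).

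Enzymes that modify the chain had 5 of 13 measured genes above background, the lowest share of the 9 lists, against 55.1% of all genes. They included the epimerase gene Glce (9.11 ± 0.09, SD, n = 3), the 2-O-sulfotransferase gene Hs2st1 (8.15 ± 0.77) and the 6-O-sulfotransferase genes Hs6st1 (10.19 ± 0.34) and Hs6st2 (7.40 ± 0.49). Hs6st2 lost its call with the threshold of tissue-restricted genes (adjusted p = 0.638). It also lost its call with its 3 probe sets averaged, of which 1 was above background (adjusted p = 0.447). Hs2st1 lost its call against the brightest antigenomic control (adjusted p = 0.0685). The remaining gene, Hs3st3b1 (6.59 ± 0.30; adjusted p = 0.0273), was the only one of 5 measured 3-O-sulfotransferase genes that passed. It did not pass without replicate 1 or without replicate 2 (adjusted p = 0.165 and 0.0681). The 99th percentile of the receptor genes also removed its call (adjusted p = 0.438), as did adding receptor pseudogenes (adjusted p = 0.0769). Its mean was below the threshold of tissue-restricted genes (-0.65) and the brightest antigenomic control (-0.80). With its 4 probe sets averaged, of which 1 was above background, it was below the receptor-gene threshold too (-0.23). None of the 3 measured N-deacetylase/N-sulfotransferase genes, Ndst2 (5.96 ± 0.66), Ndst3 (5.29 ± 0.26) and Ndst4 (5.93 ± 0.45), was above background by limma, and 0 of them had an unadjusted p under 0.05. Ndst1 was not analysed here, so the first sulfation step is not covered in full.

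Precursor supply was covered by 5 genes, and 4 of them exceeded background, while the share over all genes was 55.1%. Ugdh (8.22 ± 0.48, SD, n = 3) makes the glucuronic acid donor, Papss1 (8.47 ± 0.67) and Papss2 (8.53 ± 0.58) make the sulfate donor, and Slc35b2 (8.97 ± 0.07) carries that donor into the Golgi. Papss2 lost its call without probe sets of suffix s_at or x_at (adjusted p = 0.504). It also lost its call with its 4 probe sets averaged, of which 1 was above background (adjusted p = 0.0647). Slc35b3, a second carrier gene, stood at 6.61 ± 0.39 and missed the call (adjusted p = 0.0603), and passed without replicate 2 or without replicate 3 (adjusted p = 0.0334 and 0.0311).

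Sulf1 and Sulf2 encode the extracellular enzymes that remove 6-O-sulfate from finished chains and thereby change which growth factors bind. Sulf1 read 10.45, 10.21 and 10.77 and Sulf2 10.79, 10.21 and 10.95 on replicates 1, 2 and 3. By their probe sets of highest mean both were high on all arrays, 4.38 ± 0.19 and 4.55 ± 0.21 above the threshold (SE, n = 3; adjusted p = 3.26e-05 and 3.91e-05). Of the 3 probe sets of Sulf1, only 1 was above background, and of the 2 of Sulf2, 2 were. The probe set that represents Sulf2 has the suffix x_at. For both genes replicate 2 was the lowest array.

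The list of other proteins that carry heparan sulfate held 7 genes, and 6 of them exceeded background, while the share over all genes was 55.1%. Agrn (agrin; 11.17 ± 0.19, SD, n = 3), Hspg2 (perlecan; 9.99 ± 0.13) and Col18a1 (collagen XVIII; 9.51 ± 0.81) encode proteoglycans of basement membranes. Col18a1 was highest on replicate 3 (10.44). Tgfbr3 (betaglycan; 9.98 ± 0.32) and Cd44 (8.99 ± 0.54) encode membrane proteins that can carry such chains, as does Nrp1, which also passed and is named after its value was seen (10.14 ± 0.22). Srgn, the serglycin gene of blood cell granules, stood at 6.45 ± 0.62 and was not above background, and passed without replicate 3 (adjusted p = 0.00629).

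All 7 genes for cytoplasmic partners of syndecans exceeded background, while the share over all genes was 55.1%. Sdcbp, which encodes the adaptor syntenin that binds the end of the syndecan tail, stood at 9.44 ± 0.36 (SD, n = 3). Sdcbp2 (6.76 ± 0.15) encodes a second syntenin and lost its call with the 99th percentile of the receptor genes as threshold (adjusted p = 0.131). Cask (8.99 ± 0.19) and Gipc1 (9.35 ± 0.12) encode further adaptors of the tail, and Prkca (8.11 ± 0.54) encodes the kinase bound by syndecan-4. Prkca lost its call against the brightest antigenomic control (adjusted p = 0.0598). So did Sdcbp2, and 5 of the 7 partner genes kept theirs, while 31.6% of all genes passed.

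Of 9 genes for convertases, sheddases and extracellular enzymes, 8 were above background, against 55.1% of all genes. Furin (8.62 ± 0.26, SD, n = 3) and Pcsk5 (6.68 ± 0.19) encode convertases, a class of enzymes that cleave glypicans on their way to the surface. Pcsk5 did not pass without replicate 1 (adjusted p = 0.0994) or with the 99th percentile of the receptor genes as threshold (adjusted p = 0.238). Its mean was below the threshold of tissue-restricted genes (-0.56) and the brightest antigenomic control (-0.71). With its 3 probe sets averaged, of which 1 was above background, it was below the receptor-gene threshold too (-0.30). Adam10 and Adam17 encode metalloproteases that release membrane proteins from the surface, and stood at 9.88 ± 1.01 and 8.86 ± 0.21. Adam10 read 11.04 on replicate 3, well above its values on the other arrays. Mmp9, a gene of a secreted matrix protease, stood at 7.38 ± 0.54, and Mmp7, which encodes a protease that sheds syndecan-1, at 5.11 ± 0.19, not above background. Mmp9 lost its call with the threshold of tissue-restricted genes (adjusted p = 0.662), where 5 of the 9 genes passed, against 33.6% of all genes.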

How the data were processed

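RNA of 3 pools of sorted embryonic mammary cells was measured on Affymetrix arrays. The authors deposited 1 log2 value for each probe set and array, made with RMA and the affy package per the submitters' processing notes; versions, settings and genome build are not given in the sources used here. RMA compresses differences of weak probe sets. Whether all arrays went through 1 joint normalization is not given in the sources used here.

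The table held 45141 probe sets, 104 of them manufacturer's controls. The platform annotation gave 28898 a single symbol, 551 several and the other 15588 no listed gene; only the first kind was used. A gene with several probe sets (7180 of 17097) was represented by the one with the highest mean. The log2 value minus the threshold was fitted with limma 3.58.1 in R 4.3.3 (intercept, empirical Bayes with trend, one-sided p, Benjamini-Hochberg over 17097 genes, or over 28898 probe sets for values marked so). The p-values and SEs leave out the uncertainty of the threshold, and the SEs are moderated by the fit across all genes. Of the 74 receptor genes, 1 was itself above background, and so were 9 of 38 tissue-restricted genes. The script was tested on simulated data. Python 3.11.15 with pandas 2.3.3 and matplotlib 3.10.9 drew figures and counted motifs. Arrays have no count depth, and their number limits the precision.

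Members and lists were chosen with earlier results of these data known. All members were named. Of each pathway list the first 5 genes above background and the first 3 others were named in list order, and of marker lists the first 3 and 2, where a result is set beside them. Nrp1 was named after its value was seen. Alternatives covered the threshold, normalization, variance model, dim probe sets, those of suffix s_at or x_at, the choice of probe set and each replicate.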

Additional observations from a re-analysis of the deposited data

How the results depend on the processing

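The 6 members above background were the same number in all 12 alternatives, and each of the 94 recomputed member levels kept its side of the threshold and its call. The filter on dim probe sets left Gpc2 and Gpc5 untested. Without replicate 1, 2 or 3 the count of members stayed at 6 (6 to 6), that of member probe sets was 13 to 14 against 12, and that of pathway genes 42 to 46 against 44. Over all alternatives member probe sets numbered 11 to 14 and pathway genes 30 to 46, the lowest with the brightest antigenomic control as threshold. Adding 4 receptor pseudogenes to the background genes was chosen after seeing the data and gave 6 members and 43 pathway genes. Differences between arrays depended on normalization: as deposited, 6 of 8 members were higher on replicate 3 than the mean of the others, and after quantile normalization 3 were (Sdc3, Sdc4 and Gpc4). With all probe sets of a gene averaged, Sdc3 was -0.44 and Sdc4 -0.11 on replicate 3, against 0.48 and 0.66 with the brightest probe set, since their probe sets disagreed, and Gpc6 was 0.47 against 0.18. No paired analysis was possible because the study has 1 group. Signal near background limits what can be said of Gpc2 and Gpc5.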
